A study of Mus musculus with 6 samples.

Results

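The p53 pathway and the senescence-linked cell cycle inhibitors were examined as a set of 10 listed genes, of which 7 could be measured among 20259 genes: Mdm2, Cdkn1a, Cdkn2a, Cdkn2b, Bbc3, Ccng1 and Sesn2. Members were taken by name from a list and not by a cut on their measured values. The list was chosen with earlier results of these data known. A gene entered where the platform annotation gave a row of the table that symbol alone, and where a gene had several rows the brightest on average stood for it. Trp53, Bax and Gdf15 had no such row and were not analysed here. The samples were GFP+ cells sorted from mouse pancreas, 3 of genotype KCiMist1G; p120f/f, labelled p120 knockout, and 3 of genotype KCiMist1G; p120wt/wt, labelled wild type. Mice of both groups carried the KCiMist1G background, a model of preinvasive pancreatic cancer, were given tamoxifen at 7 to 9 weeks of age to activate Cre, and gave tissue 2 weeks later. The labels do not spell out the alleles behind KCiMist1G. They call the samples biological replicates without saying how many animals each held, and p-values refer to the spread between samples only. Mist1 is the other name of Bhlha15, a transcription factor of pancreatic acinar cells.

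The p53 protein is a stress-activated transcription factor. Its target genes include Cdkn1a, which blocks cyclin-dependent kinases, Bbc3, which promotes apoptosis, and Mdm2, whose product is the ubiquitin ligase that destroys p53 in a feedback loop. Cdkn2a encodes the kinase inhibitor INK4A and, from another first exon and reading frame, ARF, which binds MDM2 and thereby stabilises p53. Cdkn2b, its neighbour, encodes the related inhibitor INK4B. In pancreas, these inhibitors can be induced in precursor lesions, where they are linked to growth arrest.

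The values are RMA log2 expression, 1 array per sample, so a difference of 1 is a doubling of signal, and small folds of dim genes are compressed. Array medians ran from 4.08 to 4.25. Ctnnd1, which encodes p120 catenin, gave 5.61, 6.61 and 6.38 on the knockout arrays and 5.87, 6.81 and 6.44 on the wild-type arrays, a difference of -0.17 (SE 0.32, exact permutation p = 0.6), so its single row did not show the loss that the labels state; whether that row reads the deleted part is not given in the sources used here. Directions below are those of the labels. Knockout array 1 stood apart from knockout arrays 2 and 3 on the first principal component (-38.1 against 28.4 and 37.1), with the wild-type arrays between them. The 9 measured acinar markers averaged 10.24, 11.03 and 11.04 on the knockout arrays and 10.73, 10.83 and 10.85 on wild-type arrays. The 13 measured leukocyte markers, of cells that the sort for GFP would be expected to leave out, averaged 8.53, 7.25 and 7.28 on the knockout arrays and 8.13, 8.18 and 8.03 on the wild-type arrays.

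RefSeq promoter windows (GRCm38.p6) were found for all 7 measured members, 11 windows in all, since Cdkn1a, Cdkn2a and Bbc3 have several annotated starts. Each was searched for the p53 response element, a pair of adjoining half-sites of 10 bases that reads the same on both strands, in the 250 bases before the start. The stretches shown hold the closest matches among the measured members, by a match rule chosen with known p53 elements in view. Capitals mark the best match of 20 bases in the window.

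Cdkn1a, upstream start, chr17:29090908-29090967, plus strand: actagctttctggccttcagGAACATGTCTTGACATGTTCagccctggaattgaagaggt

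Ccng1, chr11:40755442-40755501, minus strand: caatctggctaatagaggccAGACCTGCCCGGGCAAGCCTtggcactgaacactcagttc

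Bbc3, upstream start, chr7:16309466-16309525, plus strand: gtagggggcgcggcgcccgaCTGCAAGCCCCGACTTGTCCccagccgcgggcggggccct

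The Cdkn1a and Ccng1 matches each departed from the consensus at 1 of 20 bases, a fit found in 0.076% of 32851 promoter windows. The Cdkn1a element lies 2841 bases before the downstream start of the gene and 51 bases before the upstream one. The Bbc3 match departed at 3 bases, as close as 5.32% of windows. In the windows of Mdm2, Cdkn2a, Cdkn2b and Sesn2 the best match departed at 5 or 6 bases, which says only that these letters are not in those windows; the known element of Mdm2 lies in its first intron, outside the window. A match is a description of sequence and not a measurement of binding.

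None of the 7 members passed limma's threshold (Benjamini-Hochberg adjusted p under 0.05 over all genes), and neither did any of the 20259 genes (0%). At an unadjusted p under 0.05 the count was 1 of 7 members, Cdkn2a, against 3.49% of all genes. Cdkn2a was also the 1 member whose 3 knockout arrays lay above all 3 wild-type arrays, a separation seen in 8.69% of all genes in either direction and in 6.21% with knockout higher. The knockout mean was above the wild-type mean for 5 members and below it for Mdm2 and Ccng1. The median difference of the members was 0.10 on the log2 scale, and over all genes it was 0.055, with 61.7% of genes above 0. An exact permutation test of 3 arrays against 3 cannot give a p below 0.1, and Cdkn2a alone reached that value.

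**Figure D1:**
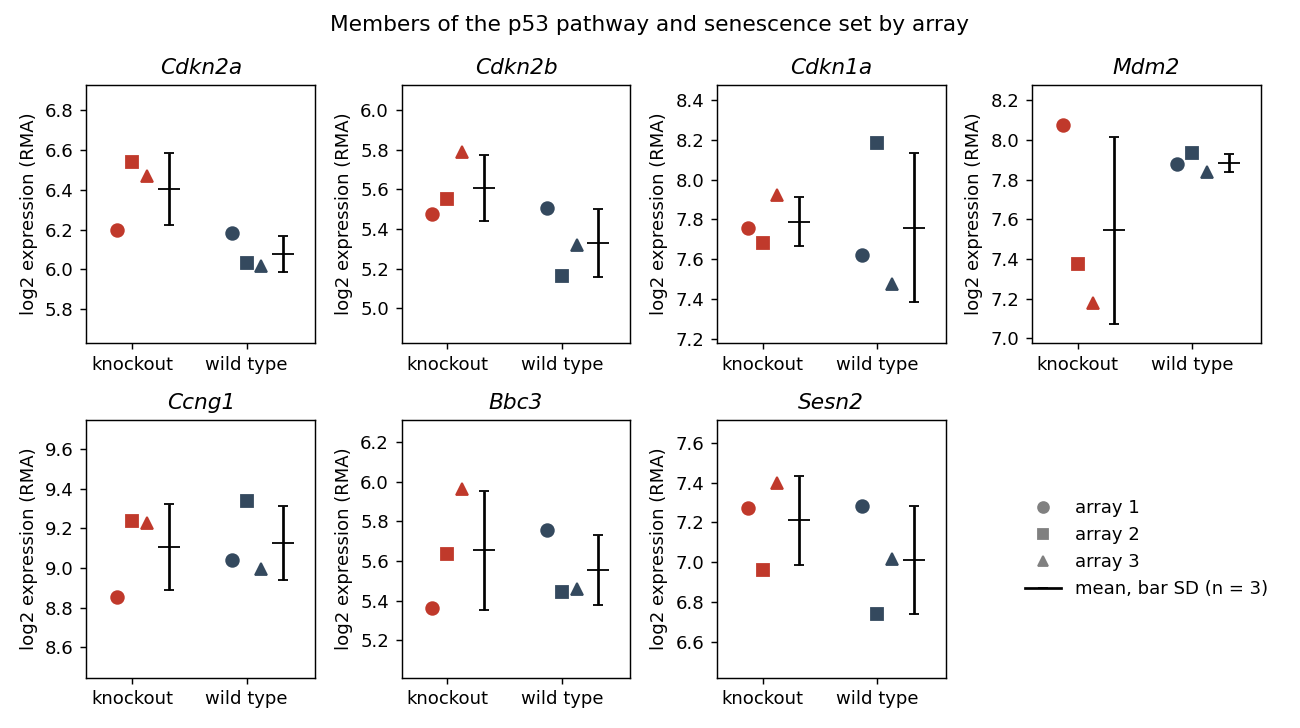
Log2 expression (RMA) of the 7 measured members, 1 point per array, knockout left and wild type right in each panel, with the mean and SD (n = 3) beside the points; every panel spans the same log2 range. Cdkn2a is the panel without overlap between the groups, and in the Mdm2 panel knockout array 1 (8.08) lies above all wild-type arrays while knockout arrays 2 and 3 (7.38 and 7.18) lie below them.

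The kinase inhibitors of the Cdkn2 locus had the largest positive differences among the members. Cdkn2a gave 6.20, 6.54 and 6.47 on the knockout arrays and 6.18, 6.03 and 6.02 on the wild-type arrays. Knockout array 1 cleared the highest wild-type array by a margin far smaller than the spread within either group, and knockout arrays 2 and 3 lay well above it. Cdkn2a averaged 6.40 ± 0.18 in knockout cells and 6.07 ± 0.091 in wild-type cells (SD, n = 3 each). The difference was 0.33 (SE 0.13), with an adjusted p of 0.907 in limma, an unadjusted p of 0.0425 in the same fit and an exact permutation p of 0.1. On the linear scale this is 1.26-fold, with a 95% confidence interval of 1.01 to 1.56. The Cdkn2a difference no longer passed the unadjusted limma level of 0.05 when any array other than knockout array 1 was left out. It then ran from 0.26 (without knockout array 2) to 0.38 (without wild-type array 1). Nor did it pass with arrays shifted to 1 median (0.24), with a replicate block or over all rows. It passed that level under the remaining alternatives. Without knockout array 1 the difference was 0.43 (SE 0.10, limma adjusted p = 0.0733).

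Cdkn2b gave 5.47, 5.55 and 5.79 on the knockout arrays and 5.51, 5.16 and 5.32 on the wild-type arrays. Its groups overlapped, because wild-type array 1 lay above knockout array 1. Its difference was 0.28 (SE 0.14, 95% confidence interval -0.062 to 0.62, limma adjusted p = 0.907, exact permutation p = 0.2). Wild-type array 1 held the highest wild-type value of both genes and knockout array 1 the lowest knockout value of both. The 2 genes are neighbours on chromosome 4, with 16413 bases between the Cdkn2b start and the nearer Cdkn2a start, and each had 1 row.

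One row reports Cdkn2a, so the transcripts of INK4A and ARF could not be told apart. They begin at separate starts, 12427 bases from each other, whose upstream stretches are shown with that of Cdkn2b because a single value stands for both Cdkn2a promoters. Capitals mark GC boxes (GGGCGG or its reverse complement), the binding motif of Sp1-type factors.

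Cdkn2a, start farther upstream, known in mouse as that of ARF, chr4:89294620-89294719, minus strand: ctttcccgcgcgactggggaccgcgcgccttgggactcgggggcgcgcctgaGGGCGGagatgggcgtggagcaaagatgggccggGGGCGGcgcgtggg

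Cdkn2a, start farther downstream, known in mouse as that of INK4A, chr4:89282193-89282292, minus strand: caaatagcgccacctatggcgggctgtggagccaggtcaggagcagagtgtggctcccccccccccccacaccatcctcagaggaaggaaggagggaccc

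Cdkn2b, chr4:89311033-89311132, minus strand: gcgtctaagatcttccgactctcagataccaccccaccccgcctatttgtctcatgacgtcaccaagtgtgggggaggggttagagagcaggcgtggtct

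Over the 250 bases before each start, the upstream Cdkn2a window held 2 GC boxes and 40 CpG dinucleotides, and the downstream one held 0 GC boxes and 7 CpG dinucleotides. The Cdkn2b window held 0 GC boxes and 12 CpG dinucleotides. At least 1 GC box was present in 32.7% of all promoter windows.

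Cdkn1a, the kinase inhibitor that p53 induces most directly, did not separate the groups. It gave 7.76, 7.68 and 7.92 on the knockout arrays and 7.62, 8.18 and 7.47 on the wild-type arrays. All 3 knockout values lay inside the wild-type range, which was set by wild-type array 2 at the top and wild-type array 3 at the bottom. The mean was 7.79 ± 0.12 in knockout cells and 7.76 ± 0.37 in wild-type cells (SD, n = 3 each), a difference of 0.030 (SE 0.20, 95% confidence interval -0.43 to 0.49, limma adjusted p = 0.978). The interval runs from 0.741-fold to 1.41-fold, so changes within that range are not excluded by these 3 arrays a group. The direction moved with single arrays, since leaving out wild-type array 2 gave 0.24 and leaving out wild-type array 3 gave -0.11. Fibroblast markers were also highest on wild-type array 2, with a mean over 10 genes of 6.04, 6.40 and 6.25 on the knockout arrays and 6.29, 7.23 and 6.61 on the wild-type arrays, and their part in the Cdkn1a value was not tested.

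**Figure D2:**
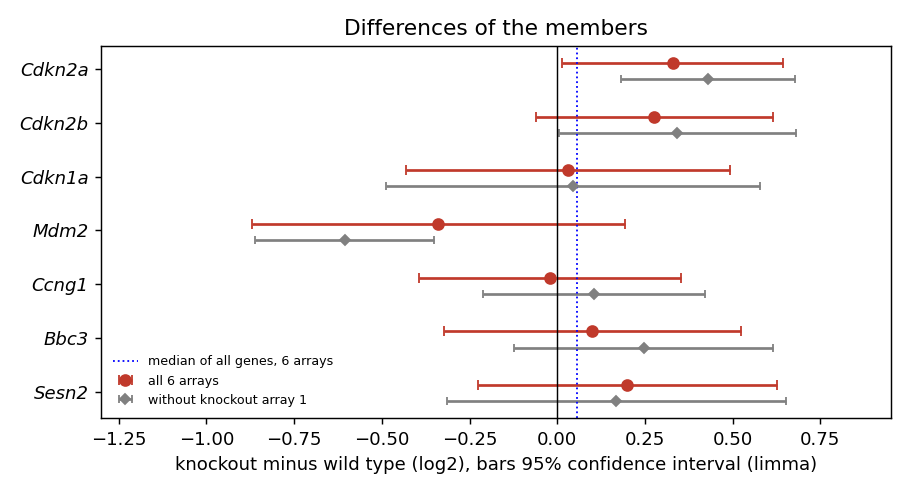
Knockout minus wild-type difference (log2) of each member with its 95% confidence interval from limma, for all 6 arrays (red circles) and without knockout array 1 (grey diamonds); the dotted line is the median of all genes with 6 arrays (0.055). With 6 arrays only the Cdkn2a interval leaves out 0, and without knockout array 1 Mdm2 lies at -0.61.

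Mdm2, the p53 ubiquitin ligase and itself a p53 target, had the largest difference toward lower values. It gave 8.08, 7.38 and 7.18 on the knockout arrays and 7.88, 7.93 and 7.84 on the wild-type arrays. Wild-type values were close together, and the knockout arrays lay on both sides of them, array 1 above and arrays 2 and 3 below. Mdm2 averaged 7.54 ± 0.47 in knockout cells and 7.88 ± 0.047 in wild-type cells (SD, n = 3 each), a difference of -0.34 (SE 0.23, limma adjusted p = 0.907, exact permutation p = 0.4). Knockout array 1 exceeded the mean of knockout arrays 2 and 3 by 0.80, a gap larger than the difference between the groups. Without knockout array 1 the Mdm2 difference was -0.61 (SE 0.11, limma adjusted p = 0.0567), and without knockout array 3 it was -0.16.

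The order of the arrays for Mdm2 matched that of the leukocyte markers closely. Knockout array 1 was highest for both, the wild-type arrays were next and knockout arrays 2 and 3 were lowest. On the first principal component, which held 51.7% of the variance, the wild-type arrays also lay between knockout array 1 and the other knockout arrays. An order of this kind was thus not particular to Mdm2 and these markers, and the share of genes with it was not counted. All 13 measured leukocyte markers had a lower mean in knockout, by a median of -0.44 on the log2 scale, and by -0.89 without knockout array 1. The cells had been sorted for GFP, a gate that would be expected to remove leukocytes, and the marker levels are those of the sorted samples. Each array pooled the RNA of many cells, where fewer cells of a type and less RNA per cell cannot be told apart, and the part of leukocyte RNA in the Mdm2 value was not tested. Acinar markers ran the other way within the knockout group, lowest on array 1.

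**Figure D3:**
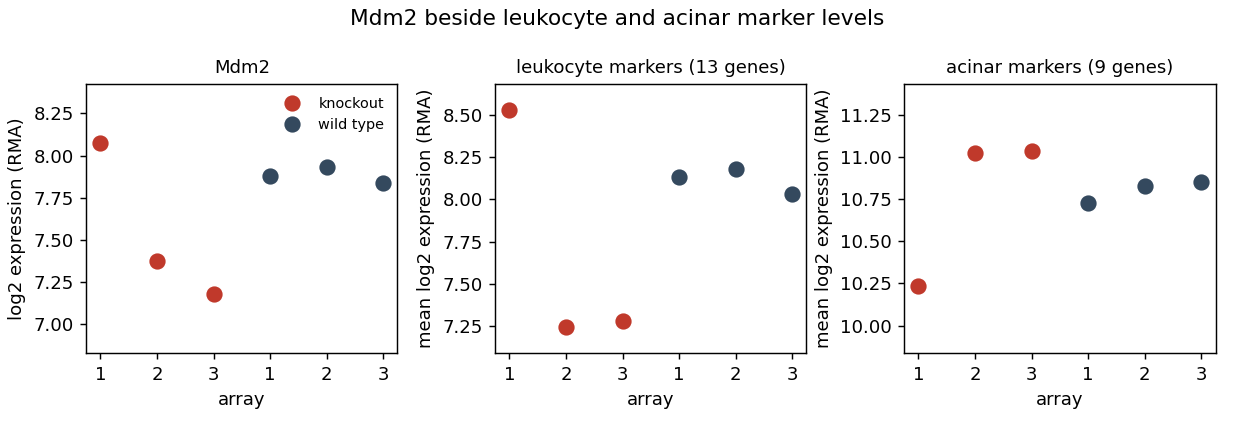
Log2 expression (RMA) by array for Mdm2 (left) and the mean log2 expression of 13 leukocyte markers (middle) and 9 acinar markers (right), knockout arrays in red and wild-type arrays in dark blue; every panel spans the same log2 range. Knockout array 1 is the highest array for Mdm2 (8.08) and for leukocyte markers (8.53) and the lowest for acinar markers (10.24).

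Without knockout array 1, 3 members had an unadjusted limma p under 0.05 (Mdm2 lower, Cdkn2a and Cdkn2b higher), where 29.3% of all genes did, and those 3 were also the members whose groups did not overlap, where 51.0% of all genes did not. None passed the adjusted threshold in that fit. With array weights, which limma estimated without reaching convergence, Cdkn2a (0.46, adjusted p = 0.0248) and Mdm2 (-0.51, adjusted p = 0.0253) passed, as did 23.7% of all genes; that fit put a weight of 8.57 on knockout array 2 and 0.142 on knockout array 1.

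The remaining p53 targets were close to the spread of the arrays. Ccng1, which encodes cyclin G1 and takes part in the feedback on p53, gave 8.86, 9.24 and 9.23 on the knockout arrays and 9.04, 9.34 and 9.00 on the wild-type arrays. Its knockout arrays bracketed 2 of the 3 wild-type arrays, and the difference was -0.020 (SE 0.16, 95% confidence interval -0.39 to 0.35, limma adjusted p = 0.981). A further quantile normalization put the Ccng1 difference at 0.093, so it has no settled direction. Ccng1 and Cdkn1a were both highest on wild-type array 2. So were the means of the 27 other p53 target genes (6.81) and of the fibroblast (7.23), endothelial (5.74), islet (7.61) and duct (7.05) markers. Bbc3 and the means of the leukocyte and acinar markers were not, and the share of all genes highest there was not counted.

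Bbc3, which encodes the pro-apoptotic BH3-only protein PUMA, gave 5.36, 5.64 and 5.96 on the knockout arrays and 5.76, 5.44 and 5.46 on the wild-type arrays. Knockout arrays held both the lowest and the highest value of the 6. Its difference was 0.10 (SE 0.18, limma adjusted p = 0.919), and it was -0.055 without knockout array 3.

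Sesn2, which encodes the stress-inducible sestrin that restrains mTORC1 and responds to both p53 and ATF4, gave 7.27, 6.96 and 7.40 on the knockout arrays and 7.28, 6.74 and 7.01 on the wild-type arrays. Its groups overlapped, and the difference was 0.20 (SE 0.18, limma adjusted p = 0.907). Sesn2 alone among the members had several rows, 5 in all. The differences of the other 4 rows were 0.012, 0.11, 0.26 and 0.96, all positive but of very different size. The row at 0.96 was dim, with 3.21, 4.56 and 4.09 on the knockout arrays and 3.31, 2.99 and 2.68 on the wild-type arrays, and its knockout array 1 lay among the wild-type arrays. The row at 0.26, also dim, had no overlap. It gave 3.72, 3.88 and 3.58 on the knockout arrays and 3.48, 3.45 and 3.46 on the wild-type arrays. Sesn2 passed the unadjusted limma level of 0.05 with the mean of its rows (0.31) and with the row at 0.96. It did not pass the adjusted threshold with either.

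Across arrays the members did not move as one group. The range of a member over the 6 arrays ran from 0.485 for Ccng1 to 0.900 for Mdm2. Wild-type array 2 was the highest of the 6 for Cdkn1a and Ccng1 and the lowest for Cdkn2b and Sesn2. Knockout array 3 was the highest for Cdkn2b, Bbc3 and Sesn2 and the lowest for Mdm2. Knockout array 1 was the lowest for Bbc3 and Ccng1.

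Other genes of the pathway were counted in 6 lists with 115 measured genes. None of the 115 passed the adjusted threshold in limma, and 1 of them (0.87%) had an unadjusted p under 0.05 against 3.49% of all genes. The groups of 6 (5.22%) did not overlap, against 8.69% of all genes. Of those 6, 5 were lower and 1 higher in knockout, where 501 of the 20259 genes were separated with knockout lower and 1259 with knockout higher. The 27 measured p53 target genes other than the members had 17 higher and 10 lower means in knockout, with a median difference of 0.055 (0.055 over all genes). Their 3 smallest p-values belonged to Abhd4 (0.31, SE 0.17), Dcxr (0.26, SE 0.20) and Apaf1, the apoptosome scaffold (-0.23, SE 0.21), each at a limma adjusted p of 0.907.

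The 20 p53 regulators had 14 lower and 6 higher means in knockout and a median difference of -0.075. Chek1, a DNA damage checkpoint kinase upstream of p53, was the 1 list gene with an unadjusted p under 0.05, with 5.69, 5.52 and 5.15 on the knockout arrays and 5.74, 5.89 and 5.99 on the wild-type arrays. Every knockout array lay below every wild-type array, and the Chek1 difference was -0.42 (SE 0.17, limma adjusted p = 0.907). Sirt1, a deacetylase that acts on p53, differed by -0.36 (SE 0.18) with knockout array 1 inside the wild-type range. Trp53bp2, which promotes the apoptotic function of p53, differed by -0.18 (SE 0.10) with no overlap between groups.

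Of the other kinase inhibitors and RB pathway genes, 13 of 16 had a lower and 3 a higher mean in knockout, with a median difference of -0.099. Cdkn2d, which encodes INK4D, differed by -0.35 (SE 0.18), and Cdkn1b, which encodes the inhibitor p27, by -0.23 (SE 0.15), with 8.54, 8.23 and 8.54 on the knockout arrays and 8.57, 8.59 and 8.86 on the wild-type arrays. Ccne2, cyclin E2, which activates CDK2, differed by -0.24 (SE 0.12). The limma adjusted p of all 3 was 0.907, and the groups of Cdkn1b and Ccne2 did not overlap. Without knockout array 1 the list had 14 of 16 genes lower (median -0.11), where 7036 of all 20259 genes were lower and the median over all genes was 0.11.

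Senescence and secretory phenotype genes had 12 of 22 higher and 10 lower in knockout (median 0.021), and without knockout array 1 they had 8 higher and 14 lower (median -0.16). In that same fit 0 of 13 leukocyte markers were higher, with a median of -0.89. Il1b, a cytokine gene of this list picked out after its values were seen, gave 9.20, 6.57 and 6.83 on the knockout arrays, against 7.77, 8.08 and 7.36 on the wild-type ones. Like the leukocyte markers it was highest on knockout array 1, and the part of those markers in the list was not tested. Igfbp5, which encodes a secreted binding protein of insulin-like growth factors, differed by -0.72 (SE 0.50), with 4.52, 6.16 and 5.96 on the knockout arrays and 5.68, 7.04 and 6.08 on the wild-type arrays. Igfbp5 was -0.21 without knockout array 1. Its lowest array was knockout array 1 and its highest wild-type array 2. The means of the fibroblast, islet and duct markers had the same lowest and highest arrays. All 10 fibroblast markers had a lower mean in knockout (median -0.44), as did 5 of 6 islet and 2 of 5 duct markers. The part of any of these markers in the Igfbp5 value was not tested. Bhlhe40, a transcription factor also called DEC1, differed by -0.27 (SE 0.20), and Hmga2, a chromatin protein, by 0.13 (SE 0.12). Igfbp5, Bhlhe40 and Hmga2 did not pass the threshold (limma adjusted p = 0.907 each), and neither did Il1b (limma adjusted p = 0.953).

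BCL2 family and caspase genes had 7 of 16 higher and 9 lower in knockout (median -0.026). The pro-apoptotic genes Bik (0.25, SE 0.16) and Bad (0.21, SE 0.16) and the initiator caspase gene Casp8 (-0.25, SE 0.21) had the smallest p-values, each at a limma adjusted p of 0.907. Another row of Bad had the opposite sign. ATF4 stress response genes, counted because Sesn2 also answers to ATF4, had 6 of 14 higher and 8 lower in knockout (median -0.072), and 9 higher and 5 lower without knockout array 1. Fgf21, a hormone induced by this response, gave 5.89, 5.97 and 6.09 on the knockout arrays and 5.70, 5.81 and 5.63 on the wild-type arrays without overlap (0.27, SE 0.12, limma adjusted p = 0.907). Sesn3, a second sestrin, differed by -0.39 (SE 0.26) and Atf4 itself by -0.18 (SE 0.14).

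**Figure D4:**
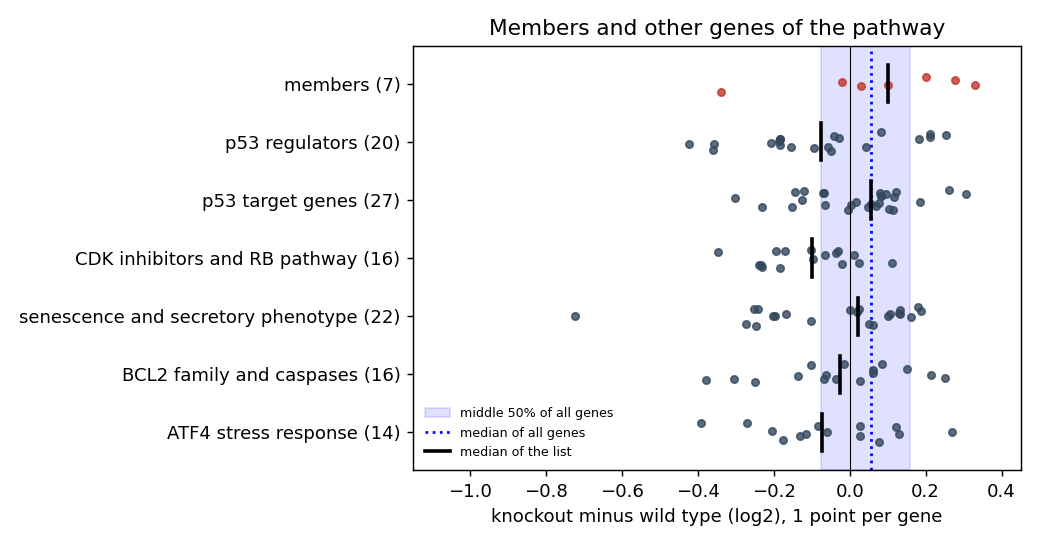
Knockout minus wild-type difference (log2) of the 7 members and of the 6 pathway lists, 1 point per gene, with the number of measured genes in brackets; black bars are medians, the dotted line is the median of all genes (0.055) and the shaded band holds the middle 50% of all genes. The median of the p53 target genes lies on the line for all genes, and the medians of the regulators (-0.075) and of the kinase inhibitors and RB pathway (-0.099) lie left of it.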

How the data were processed

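Per the submitters' processing notes, the authors used RMA (background correction, normalization between arrays and probe summary) and Partek; versions, genome build and scan batches are not given in the sources used. The deposited values are on the log2 scale. Of 115830 rows, 25539 carried 1 gene symbol, 2300 several and 87991 none here; rows may also read close paralogs. All 7 measured members matched RefSeq by gene number. The members and gene lists were chosen with earlier results of these data known. Knockout minus wild type was tested over 20259 genes in R 4.3.3 using limma 3.58.1 (lmFit and eBayes, without block or filter), with p-values adjusted by Benjamini-Hochberg over all genes. The fit was tested on simulated data. Single values were also compared by a two-sided exact permutation test. All 7 measured members are described, with the 3 smallest p-values of each of 6 pathway lists; 6 marker lists are given by counts and levels. The match rule for promoters was chosen with known p53 elements in view. Alternatives changed the normalization, the filter, the row of a gene, the variance model or the array weights, blocked on replicate number, or left out 1 array; counts without knockout array 1 were added after seeing the data. The 3 arrays per group limit precision.

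The other marker lists had, in knockout, 0 of 10 fibroblast, 3 of 6 endothelial, 1 of 6 islet, 4 of 9 acinar and 3 of 5 duct genes higher. Without knockout array 1 the counts, in the same order, were 1 of 10, 5 of 6, 2 of 6, 9 of 9 and 4 of 5. Of all 20259 genes 13223 were then higher. Over all genes, correlations of same-numbered deviations from the group means were 0.041, 0.14 and -0.15, so the replicate numbers were not taken as pairs. For single genes a replicate block moved the SE either way. It went from 0.32 to 0.15 for Ctnnd1, from 0.50 to 0.22 for Igfbp5 and from 0.13 to 0.17 for Cdkn2a. Igfbp5 then had an unadjusted limma p of 0.0137 and an adjusted p of 0.953.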

Additional observations from a re-analysis of the deposited data

How the results depend on the processing

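The count of genes past the threshold was 0 with all 6 arrays, 4797 with array weights and 0 to 2 when 1 array was left out. For members it was 0, with 2 under array weights (Cdkn2a and Mdm2). At an unadjusted p under 0.05 the main fit counted 708 of 20259 genes. The number tested changed with some settings. Above the 25th percentile of level 449 of 15194 genes were counted, above the median level 242 of 10129, and over all rows 5742 of 115830 rows. Of 20259 genes, 8729 were counted with array weights and 389 to 5938 with 1 array left out. Of the 7 members, 0 were so counted over all rows and 0 with arrays set to a common median (730 of 20259 genes). The count was 2 with the mean of rows (745 genes) and 2 with the row of largest interquartile range (765 genes), Cdkn2a and Sesn2 in both. It was 3 with array weights (8729 genes). With 1 array left out it was 0 to 3, and the 3 came without knockout array 1 (5938 genes). With a replicate block 0 members and 652 genes were counted at that level and none was past the threshold. Over 17 alternatives, Cdkn2a ran from 0.24 to 0.46, Cdkn2b from 0.18 to 0.36 and Mdm2 from -0.61 to -0.16 without a change of sign. Of 119 member values 108 kept their direction, but many of the 119 could not have changed it. The level filters, the test over all rows, the variance models and the replicate block leave a difference as it is. The choice of row could move only Sesn2 among the members. Cdkn1a was -0.054 with arrays shifted to 1 median, -0.056 with array weights and -0.11 to 0.24 with 1 array left out. Ccng1 was 0.093 after quantile normalization, 0.11 with array weights and -0.085 to 0.11 with 1 array left out. Bbc3 was -0.055 to 0.25 with 1 array left out. Sesn2 was -0.011 with array weights and 0.96 with the row of largest interquartile range. Ctnnd1 was 0.20 with array weights and -0.42 to 0.12 with 1 array left out. Bad was -0.068 with the mean of rows and -0.35 with the row of largest interquartile range. The cause of these changes was not tested.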
